A study of Mus musculus with 14 samples.

Results

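The respiratory chain genes were taken by their symbols alone, as the nuclear genes of the Nduf, Sdh, Uqcr, Cox and Atp5 families that encode subunits of complexes I to V, together with the protein-coding genes of mitochondrial DNA. They made up 100 of the 34193 genes in the count table, 87 of them nuclear and 13 mitochondrially encoded. Complex I held 35 nuclear and 7 mitochondrially encoded members, complex II 4 nuclear members, complex III 8 and 1, complex IV 19 and 3, and ATP synthase, complex V, 17 and 2. The other 4 nuclear members carry a family name without being a subunit of one complex. They are Cox4nb, a subunit of a membrane complex of the endoplasmic reticulum, Cox7a2l, which joins complexes III and IV, Atp5sl, which takes part in complex I assembly, and Atp5s.

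The respiratory chain passes electrons from NADH and succinate through complexes I to IV to oxygen and pumps protons across the inner mitochondrial membrane, and ATP synthase uses that gradient to make ATP. Complexes I, III, IV and V are assembled from subunits made on cytosolic ribosomes and from subunits encoded in mitochondrial DNA and made on mitochondrial ribosomes, whereas complex II is encoded by the nucleus only. In cortex most of this ATP serves ion pumping and synaptic transmission.

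RNA was sequenced from cortex of C57BL/6J mice aged 8 weeks, 7 of them heterozygous for a knockout allele of the DNA methyltransferase gene Dnmt3a and 7 wild type littermates. The sources used here do not give how the allele was made. The animals' titles begin with 1 of 6 number prefixes, whose meaning the labels do not give. Prefixes 119 (males) and 141 (females) held 3 heterozygous and 3 wild type animals, and prefixes 046 and 048 (males) and 047 and 139 (females) held 4 and 4. Every prefix held both genotypes and a single sex.

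Libraries held 8951835 to 14335406 counted reads in heterozygous and 9794201 to 14206585 in wild type animals. Values below are CPM, the counts scaled to a common library size with edgeR's TMM factors. Dnmt3a, the targeted gene, lay between 84.3 and 118.1 CPM in heterozygous and between 124.2 and 164.0 CPM in wild type animals, with no overlap, and was lower in heterozygous animals in edgeR's quasi-likelihood fit (log2 fold change -0.57, SE 0.0752, adjusted p = 0.00774). In bulk cortex, fewer cells of a type and less RNA per cell cannot be told apart. Summed marker levels of several cell types differed between prefixes. For 12 astrocyte genes the sum was 13164 to 18904 CPM in prefixes 119 and 141, against 9920 to 11443 CPM in the other prefixes. Oligodendrocyte markers summed to 4514 to 6239 CPM in prefixes 119 and 141, against 3625 to 4716 CPM in the others. Of these 10 markers 6 were higher in prefixes 119 and 141 and 4 lower, with a median log2 difference of only 0.04. Neuron markers summed to 4917 to 6944 CPM in prefixes 119 and 141, against 6574 to 7251 CPM in the others, and meninges and fibroblast markers to 203 to 344 CPM, against 275 to 402 CPM. Microglia markers summed to 374 to 475 CPM, against 318 to 422 CPM in the others, and endothelial and pericyte markers to 268 to 321 CPM, against 237 to 306 CPM. Of the endothelial and pericyte markers, 7 were higher in prefixes 119 and 141 and 3 lower than in the others. Choroid plexus markers were low in both, at 6.70 ± 0.649 CPM against 6.71 ± 1.97 CPM (SD).

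Of the 13 mitochondrially encoded members, 7 had enough reads to be tested. These were mt-Nd1, mt-Nd2, mt-Nd4, mt-Nd5 and mt-Nd6 of the membrane arm of complex I, mt-Cytb, the cytochrome b of complex III, and mt-Co1, the catalytic subunit of complex IV. The other 6 were at or near 0 in all animals. mt-Co2, mt-Co3, mt-Atp6, mt-Atp8 and mt-Nd4l had 0 reads in each of the 14 libraries, which allows a level of up to 0.209 to 0.340 CPM per library (3 reads, counting error only), and mt-Nd3 had 1 read in all. A read of 50 bases cannot be placed uniquely where the nuclear genome holds the same bases. In the GENCODE M21 transcripts of build GRCm38, 97.99% to 100% of the 50-base windows of mt-Nd3, mt-Nd4l, mt-Atp6, mt-Co2 and mt-Co3 also occurred in a transcript annotated elsewhere, on chromosome 1 for most windows of each. The sources used here do not say whether reads with several matches were discarded. The share was 62.2% for mt-Nd4 and 51.1% for mt-Co1, 8.19% for mt-Nd2, 7.61% for mt-Nd5, and 0% for mt-Nd1, mt-Nd6 and mt-Cytb. It was also 0% for mt-Atp8, which had 0 reads all the same, and copies outside annotated transcripts were not searched. The mitochondrially encoded levels are therefore those of reads that the counting assigned, and the sum over complex V is 0 for this genome.

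The sequence of mt-Nd4l shows what such a copy looks like at read length. It lies at chrM:9877-10173, plus strand, GRCm38, and the transcript of Gm10222 at chr1:24612407-24612700, minus strand, is the same over all of its 294 bases. The 3 capitals at the end are the bases that the copy lacks.
mt-Nd4l: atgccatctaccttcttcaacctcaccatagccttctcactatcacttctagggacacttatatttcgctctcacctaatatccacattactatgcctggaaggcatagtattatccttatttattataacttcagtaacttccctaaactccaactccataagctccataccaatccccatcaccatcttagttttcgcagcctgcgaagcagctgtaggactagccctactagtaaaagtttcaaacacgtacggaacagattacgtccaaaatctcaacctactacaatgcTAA

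Per kilobase of exon, taken as the union of all annotated exons of a gene, every tested mitochondrially encoded member but mt-Nd6 stood above every nuclear member. mt-Co1 averaged 2501.1 CPM per kb over the 14 animals, mt-Nd1 1946, mt-Cytb 1815, mt-Nd2 771, mt-Nd5 765, mt-Nd4 508 and mt-Nd6 247. The highest nuclear members were Cox8a, a small subunit of complex IV, at 256 CPM per kb, Atp5a1 and Atp5b, the alpha and beta subunits of the ATP synthase head, at 202 and 201, and Cox4i1, a regulatory subunit of complex IV, at 191. Their longest coding transcripts are shorter than these exon lengths, by unequal amounts. They have 1916 against 4237 bases for Atp5b, 765 against 1550 for Cox4i1, 2674 against 3135 for Atp5a1 and 550 against 619 for Cox8a. The order of the nuclear members therefore depends on the measure of length.

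Among subunits with tissue isoforms, a single isoform supplied nearly all reads in cortex. Cox4i1 averaged 296 ± 50.7 CPM, against 0.438 ± 0.309 CPM for Cox4i2, the isoform known from lung (SD, n = 14 animals). Cox6a1 averaged 119 ± 15.2 CPM, against 1.76 ± 0.520 CPM for the heart and muscle isoform Cox6a2. Cox7a2 averaged 79.8 ± 14.5 CPM and the muscle isoform Cox7a1 0.785 ± 0.244 CPM. The lowest value of the first isoform was above the highest value of the second in each of these pairs. Cox6b1 averaged 111 ± 17.6 CPM, against 0.597 ± 0.282 CPM for the testis isoform Cox6b2. Cox8a averaged 158 ± 16.7 CPM, with Cox8b at 0.0854 ± 0.0944 CPM and Cox8c at 0 reads. Ndufa4, which sits in complex IV despite its name, averaged 60.3 ± 15.3 CPM, and its paralog Ndufa4l2 0.884 ± 0.318 CPM. The c subunit of the ATP synthase ring is encoded by 3 genes with the same mature protein. Atp5g3 averaged 139 ± 9.40 CPM and Atp5g1 2.21 ± 0.608 CPM, while Atp5g2 had 0 reads. Of the 50-base windows of Atp5g2, 14.8% also occur in other transcripts. The reason for its 0 reads was not tested, so they are not read as absence of its RNA. Cox7c, a complex IV subunit with no second isoform in the table, had only 16 reads in the 14 libraries, and 27.9% of its 50-base windows also occur in other transcripts. The level of Atp5l, at 440 reads in all, is uncertain, since 84.8% of its windows are shared.

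Genotype was compared first over all 14 animals with sex as a term. No member passed an adjusted p of 0.05 by edgeR's quasi-likelihood test, with 0 of 83 tested members against 2 of 13815 genes (0.0145%). The lowest adjusted p of a member was 0.978 in that edgeR fit. At an unadjusted p under 0.05 there were 0 members, against 552 genes (4.00%). The median log2 fold change of heterozygous over wild type was -0.26 for the 7 mitochondrially encoded and -0.08 for the 76 nuclear members, against 0.0024 for all genes tested. As each animal was left out the medians ran from -0.398 to -0.108 and from -0.131 to -0.036. The first was smallest without wild type replicate 5 (-0.108), 6 (-0.124) or 7 (-0.138), the wild type animals of prefixes 119 and 141, and largest without wild type replicate 3 (-0.398). The second was smallest without wild type replicate 6 (-0.036), 7 (-0.043) or 5 (-0.050) and largest without wild type replicate 2 (-0.131) or 3 (-0.124). The mitochondrially encoded values spread far within each genotype. mt-Cytb had 1263, 1584 and 2794 CPM as its lowest, median and highest value in heterozygous animals, against 1137, 1702 and 3796 CPM in wild type animals. mt-Nd6, on the opposite strand to the other mitochondrial members, had 39.3, 69.9 and 227 CPM in heterozygous animals, against 46.6, 84.0 and 283 CPM in wild type animals. The genotypes overlapped for both genes, and mt-Nd6 had the largest fold change of the members (log2 -0.41, SE 0.516). Use of the strand in counting is not given, so reads of mt-Nd6 and reads antisense to it cannot be told apart.

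The nuclear members with the smallest p in each direction were small too. Cox4i1 had 255, 270 and 310 CPM in heterozygous animals, against 240, 308 and 409 CPM in wild type animals (log2 fold change -0.19, SE 0.101). Cox7a2, a small complex IV subunit, and Ndufa7, an accessory subunit of complex I, had log2 fold changes of -0.19 (SE 0.108) and -0.15 (SE 0.0721). Ndufs3, a core subunit of the complex I peripheral arm, had a log2 fold change of 0.17 (SE 0.102), Atp5sl of 0.08 (SE 0.0791) and Sdha, the flavoprotein of complex II, of 0.04 (SE 0.0513). Each had an adjusted p of 0.978 in the edgeR fit, so none was called. In the authors' deposited table the lowest adjusted p of these members was 0.495, for Cox4i1 and Cox7a2. With the title prefix as a replicate block the count of members called was again 0, against 56 genes (0.405%). In that edgeR fit 14 members had an unadjusted p under 0.05, against 1782 genes (12.9%). They were 6 of the 7 tested mitochondrially encoded members and 8 of the 76 tested nuclear ones.

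The prefix sets were also read apart, a division made with values of these animals known. In a fit with a genotype effect for each set, 71 of 83 members had a negative fold change in prefixes 119 and 141, against 6922 of 13815 genes. In the other prefixes 31 of the 83 members had one, against 6858 genes. The test of the difference between the sets, given below, called no gene without the replicate block. In prefixes 119 and 141, mt-Nd4 had 670, 887 and 923 CPM in the 3 heterozygous animals, against 973, 1218 and 1251 CPM in the 3 wild type animals. In the other prefixes it had 428, 460, 503 and 595 CPM in heterozygous animals, against 373, 381, 553 and 590 CPM in wild type animals. Every heterozygous animal lay below every wild type animal in prefixes 119 and 141, and the genotypes were interleaved in the other prefixes. mt-Cytb had 2061, 2705 and 2794 CPM in heterozygous animals of prefixes 119 and 141, against 2824, 3678 and 3796 CPM in wild type animals, again with no overlap. mt-Co1 had 3888, 5063 and 5571 CPM in heterozygous animals, against 5076, 7012 and 7023 CPM in wild type animals of these prefixes. Here the groups overlapped, because the wild type animal of prefix 119 was close to the heterozygous animals of prefix 141, although within each prefix heterozygous animals were lower. Every heterozygous animal was below every wild type animal for 4 of the 7 mitochondrially encoded and 38 of the 76 nuclear members in prefixes 119 and 141, against 11.3% of all genes. The opposite order held for 2 nuclear members, Atp5b and Ndufs1, against 10.8% of all genes. In the other prefixes 0 members had all heterozygous animals below all wild type animals, against 1.37% of genes, and 2, Ndufs3 and Atp5sl, had them above, against 1.56%.

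**Figure D1:**
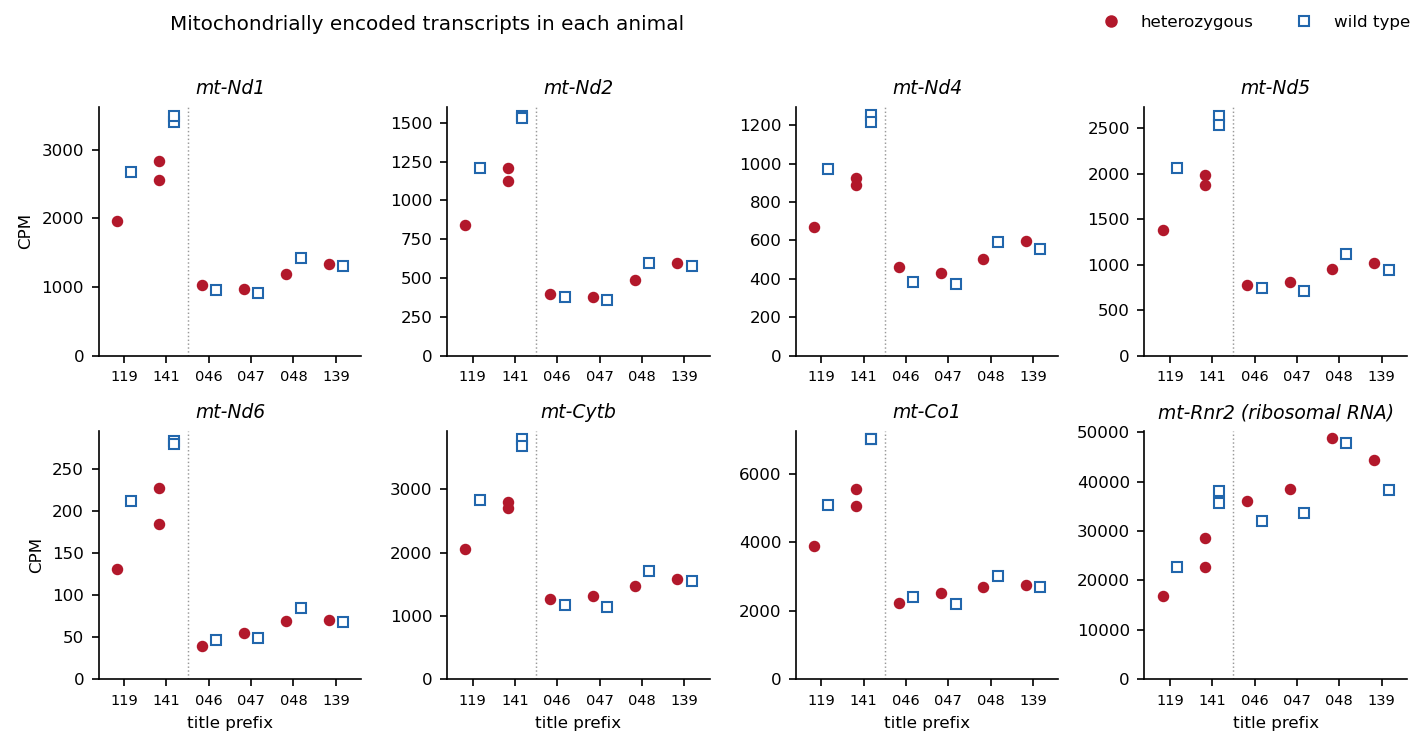
CPM of the 7 tested mitochondrially encoded members and of the mitochondrial ribosomal RNA mt-Rnr2 in each animal, by title prefix, with heterozygous animals as filled circles and wild type animals as open squares; the dotted line divides prefixes 119 and 141 from the others. In prefixes 119 and 141 heterozygous animals lie below wild type animals of the same prefix for all 8 transcripts, and the 7 protein-coding transcripts are higher there than in the other prefixes, unlike mt-Rnr2.

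Fitted on the 6 animals of prefixes 119 and 141 alone with sex as a term, which here also separates the prefixes, 40 of 85 members passed the threshold, against 2304 of 13881 genes (16.6%). All 40 were lower in heterozygous animals, against 1071 genes called lower (7.72%), and 0 were higher, against 1233 genes called higher (8.88%). They were the 7 mitochondrially encoded members and 33 nuclear ones. Without the sex term the same animals gave 0 members of 0 genes called (0%), and 44 members at an unadjusted p under 0.05, against 2511 genes (18.1%). The division into these sets was made with values of these animals known, so the counts describe the sets. In the 8 animals of the other prefixes, 0 members of 0 genes passed by edgeR's test (0%), and 1 member had an unadjusted p under 0.05, against 609 genes (4.40%). In a fit over all 14 animals with a genotype effect for each set, the median log2 fold changes in prefixes 119 and 141 were -0.45 for mitochondrially encoded and -0.23 for nuclear members, against -0.000404 for all genes tested. In the other prefixes they were -0.02 and 0.03, against 0.00083 for all genes. Medians by complex, role, list and length, correlations with length and the values of Cycs and Cyc1 come from this fit. Calls, and log2 fold changes printed with an SE for these prefixes, come from the 6 animals alone.

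Of complex I in prefixes 119 and 141, 13 of 35 nuclear members were called lower, against 7.72% of all genes. Differences between accessory and core subunits were not tested. Of the 28 accessory subunits 12 were lower, with a median log2 fold change of -0.24, and of the 7 core subunits, which carry the flavin and iron-sulfur centres, 1 was lower, with a median of -0.07. Ndufb9, an accessory subunit of the membrane arm, had 82.5, 84.4 and 94.6 CPM in heterozygous animals, against 105, 131 and 131 CPM in wild type animals. The groups did not overlap, and the fall was called in edgeR's quasi-likelihood fit (log2 fold change -0.48, SE 0.0624, adjusted p = 9.42e-06). Ndufs1, a core subunit with iron-sulfur centres and the most abundant nuclear member of the complex by CPM, had 118, 119 and 127 CPM in heterozygous animals, against 114, 114 and 116 CPM in wild type animals of these prefixes (log2 0.09, SE 0.0570, adjusted p = 0.319 by edgeR). Ndufv1, the flavoprotein that takes electrons from NADH, had 101, 105 and 108 CPM in heterozygous animals, against 90.8, 97.9 and 103 CPM in wild type animals, with overlap (log2 0.11, SE 0.0597, adjusted p = 0.214 by edgeR).

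Complex II, which has no mitochondrially encoded subunit, differed little in its summed level, most of which came from Sdha. Its 4 members summed to 484 ± 7.20 CPM in heterozygous and 494 ± 4.34 CPM in wild type animals of prefixes 119 and 141 (SD, n = 3 each). The sums did not overlap, at 475 to 488 CPM in heterozygous and 491 to 499 CPM in wild type animals. Of the 4 members 3 had a negative log2 fold change in these prefixes, with a median of -0.11. Sdha had 298, 308 and 310 CPM in heterozygous animals, against 286, 296 and 311 CPM in wild type animals. Sdhd, a membrane anchor, had 60.5, 62.6 and 62.8 CPM in heterozygous animals, against 66.9, 71.8 and 72.8 CPM in wild type animals, and was the only member of complex II called in the fit of these 6 animals (log2 fold change -0.18, SE 0.0642, adjusted p = 0.0483 in edgeR's quasi-likelihood fit). Of all genes 7.72% were called lower in that fit.

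In complex III, 4 of the 5 small accessory subunits were called lower and 0 of the 3 core and Rieske subunits, against 7.72% of all genes. The difference between these groups was not tested. Uqcrc1 and Uqcrc2, the core proteins, had log2 fold changes of 0.04 (SE 0.0567) and -0.02 (SE 0.0574) in prefixes 119 and 141. Uqcrq, a small subunit beside cytochrome b, had 47.9, 51.8 and 55.5 CPM in heterozygous animals, against 66.2, 66.5 and 66.5 CPM in wild type animals. The groups did not overlap, and the difference was called in edgeR's quasi-likelihood fit (log2 fold change -0.36, SE 0.0668, adjusted p = 0.000431).

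Of 11 tested nuclear members of complex IV, 7 were called lower, Ndufa4 among them, against 7.72% of all genes. Complex IV had the lowest median of the nuclear groups, a log2 fold change of -0.34. Its nuclear members summed to 1007 ± 58.1 CPM in heterozygous and 1273 ± 138 CPM in wild type animals of prefixes 119 and 141, and to 966 ± 35.2 and 946 ± 95.8 CPM in the other prefixes (SD, n = 3 and 4 per genotype). Cox8a had 134, 136 and 140 CPM in heterozygous animals, against 159, 184 and 190 CPM in wild type animals of prefixes 119 and 141 (log2 fold change -0.37, SE 0.0573, adjusted p = 5.51e-05 in edgeR's quasi-likelihood fit). In the other prefixes it had 158, 163, 165 and 171 CPM in heterozygous animals, against 144, 150, 160 and 163 CPM in wild type animals, which overlapped. Cox4i1 had 267, 273 and 310 CPM in heterozygous animals, against 329, 394 and 409 CPM in wild type animals of prefixes 119 and 141 (log2 fold change -0.40, SE 0.0611, adjusted p = 5.28e-05 by edgeR). Cox5a and Cox5b, subunits that sit on the matrix side, had log2 fold changes of -0.04 (SE 0.0648) and -0.15 (SE 0.0956), neither called.

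In ATP synthase 6 of 14 nuclear members were called lower, against 7.72% of all genes. Of the catalytic head 1 of 5 subunits was called, of the c ring 0 of 2, of the peripheral stalk 3 of 4, and of the small membrane subunits 2 of 3. The head subunits Atp5a1 and Atp5b had log2 fold changes of 0.07 (SE 0.0550) and 0.06 (SE 0.0547). The head subunit called lower was Atp5e, the epsilon subunit, with 49.4, 52.7 and 57.1 CPM in heterozygous animals, against 62.9, 77.8 and 80.6 CPM in wild type animals (log2 fold change -0.46, SE 0.0725, adjusted p = 7.3e-05 by edgeR). Differences between the parts were not tested. Of the small membrane subunits, Atp5j2 had 24.8, 25.03 and 29.3 CPM in heterozygous animals, against 33.1, 35.1 and 40.2 CPM in wild type animals, and Atp5k had 8.70, 9.87 and 10.0 CPM in heterozygous animals, against 12.4, 13.1 and 13.97 CPM in wild type animals. Neither overlapped between genotypes. Because Atp5a1 and Atp5b dominate the sum, the nuclear members of complex V summed to 2077 ± 38.2 CPM in heterozygous and 2116 ± 28.4 CPM in wild type animals (SD, n = 3 each).

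**Figure D2:**
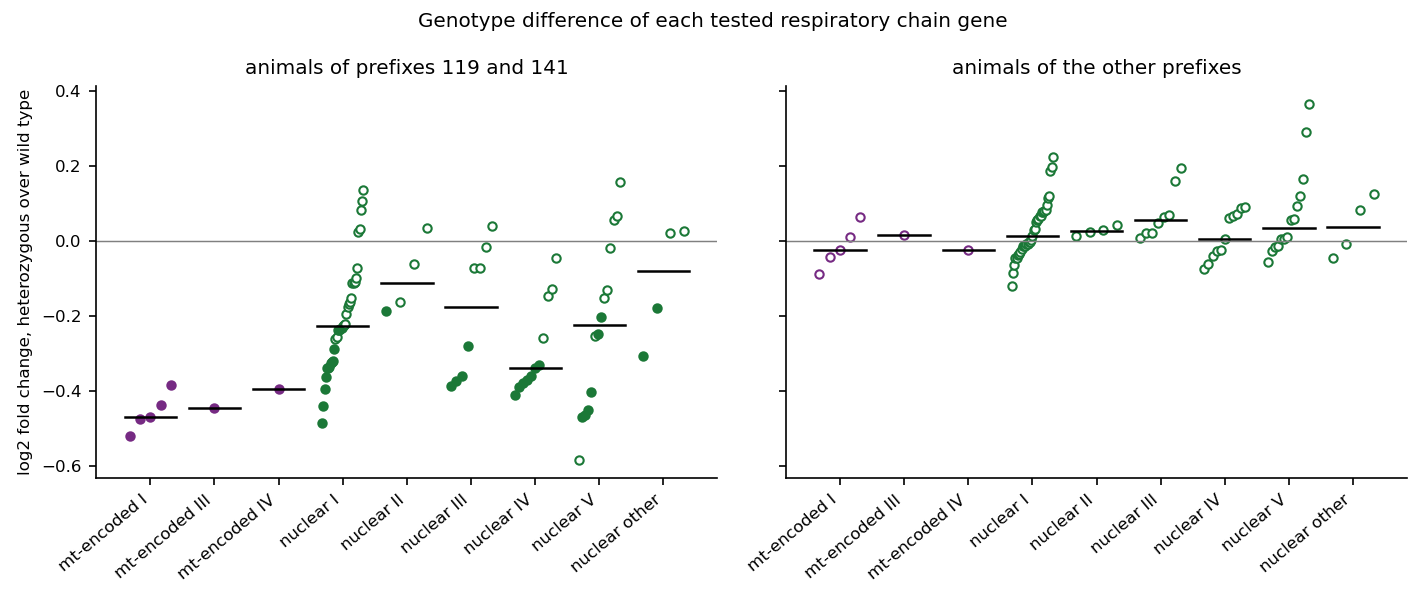
Log2 fold change of heterozygous over wild type for each tested member, fitted within prefixes 119 and 141 (left) and within the other prefixes (right), by complex and genome, with medians as bars; filled points passed an adjusted p of 0.05 in the edgeR fit of those animals alone. Medians run from -0.47 in mitochondrially encoded complex I to -0.08 in the other nuclear members on the left, and lie near 0 on the right.

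The difference between the sets was tested as an interaction of genotype and prefix set over all 14 animals. Because the sets were divided with values of these animals known, its p-values and counts describe these sets and are no independent test. No member passed, with 0 of 13815 genes called (0%), and the lowest adjusted p was 0.0507 by edgeR's quasi-likelihood test, for Atp5e (log2 difference -0.63), Ndufb9 (-0.60) and Cox8a (-0.47). At an unadjusted p under 0.05 there were 31 members, against 2036 genes (14.7%). With the title prefix as a replicate block, which takes out the differences in level between prefixes, 26 members passed, the 7 mitochondrially encoded and 19 nuclear, against 767 genes (5.55%). All 26 had a negative difference, against 374 genes with a negative one (2.71%). In that blocked edgeR fit the log2 difference was -0.56 for mt-Nd4 (adjusted p = 0.00109), -0.48 for mt-Cytb (adjusted p = 0.00148), -0.60 for Ndufb9 (adjusted p = 0.000703) and -0.47 for Cox8a (adjusted p = 0.00143). Left unblocked, the count also depended on single animals: it was 23 without wild type replicate 4 and 20 without wild type replicate 5. It was 2 when heterozygous replicate 3, 4 or 6 was left out, and 0 when any other animal was. Counts over all genes in these fits are not given here, so the counts are not read as a result about the members. The positive differences of Ndufv1 (0.12), Atp5b (0.11) and Atp5a1 (0.09) had adjusted p of 0.564, 0.592 and 0.654 in the unblocked edgeR fit.

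Other transcripts moved in prefixes 119 and 141 as well. Of the cytosolic ribosomal proteins, for which 64 genes were tested, 38 were called lower in heterozygous animals, against 7.72% of all genes, and their summed level was 2137 ± 172 CPM in heterozygous and 2649 ± 308 CPM in wild type animals. Of the 12 astrocyte markers 12 were called lower, against the same 7.72%, with sums of 13164 to 15284 CPM in heterozygous and 14098 to 18904 CPM in wild type animals. Of the 9 neuron markers 6 were called higher, against 8.88% of all genes, with sums of 6330 to 6944 CPM in heterozygous and 4917 to 6501 CPM in wild type animals. Microglia markers summed to 374 to 412 CPM in heterozygous and 425 to 475 CPM in wild type animals, with 4 of 10 called lower. Meninges and fibroblast markers summed to 203 to 246 CPM in heterozygous and 251 to 344 CPM in wild type animals, with 3 of 8 called lower. Endothelial and pericyte markers summed to 268 to 270.1 CPM in heterozygous and 281 to 321 CPM in wild type animals, with 1 of 10 called lower. These 3 sums did not overlap between genotypes. Oligodendrocyte markers summed to 4514 to 6144 CPM in heterozygous and 4775 to 6239 CPM in wild type animals, with 5 of 10 called higher and 2 lower. No marker of these lists was at 0 in all animals. The part of these differences in the result for the respiratory chain was not tested.

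Lists of genes that work beside the respiratory chain were read in the same prefixes, with no test between lists. Of 74 mitochondrial ribosomal proteins 5 were called lower in heterozygous animals, a share near the 7.72% of all genes, with a median log2 fold change of -0.10. The median was -0.05 for 11 complex I assembly factors, 0.04 for 19 assembly factors of complexes II to V, 0.07 for 16 citric acid cycle enzymes and 0.07 for 19 genes of mitochondrial transcription and RNA processing. For 12 nuclear regulators of respiratory genes, such as Nrf1, Gabpa and Ppargc1a, it was 0.00338. The list of complex I assembly factors also named Ndufab1, a subunit of complex I. Cycs, the cytochrome c that carries electrons from complex III to complex IV, and Cyc1, the cytochrome c1 of complex III, had log2 fold changes of 0.01 and -0.06.

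Title prefixes were compared within each sex, by a test with 4 degrees of freedom over the 6 prefixes and with genotype as a term. Of 83 members, 43 passed by edgeR's quasi-likelihood test, against 4448 of 13815 genes (32.2%). They were all 7 mitochondrially encoded members and 36 nuclear ones, of which 20 of 35 belonged to complex I, 0 of 4 to complex II, 2 of 8 to complex III, 6 of 11 to complex IV, 6 of 14 to complex V and 2 of 4 to the remainder. Of the 43, 38 were higher in prefixes 119 and 141, against 2144 genes (15.5%).

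mt-Nd1 averaged 2822 ± 572 CPM in the 6 animals of prefixes 119 and 141, against 1142 ± 197 CPM in the 8 animals of the other prefixes (SD). mt-Co1 averaged 5606 ± 1226 CPM in prefixes 119 and 141, against 2558 ± 279 CPM in the others. mt-Nd6 averaged 219 ± 58.0 CPM in prefixes 119 and 141, against 60.1 ± 15.0 CPM in the others. All 6 animals of prefixes 119 and 141 lay above all 8 other animals for each of the 7 mitochondrially encoded members. The log2 difference was 1.80 for mt-Nd6, 1.35 for mt-Nd2, 1.26 for mt-Nd1, 1.19 for mt-Nd5, 1.08 for mt-Co1, 1.03 for mt-Cytb and 0.97 for mt-Nd4. The mitochondrial ribosomal RNAs, transcribed from the same genome, had the opposite sign, with -0.75 for mt-Rnr1 and -0.61 for mt-Rnr2. Both overlapped between the sets. mt-Rnr1 had 2379 to 4762 CPM in prefixes 119 and 141, against 3634 to 6816 CPM in the others. mt-Rnr2 had 16770 to 38171 CPM, against 32063 to 48730 CPM in the others.

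Nuclear members differed less and in both directions between prefixes. With the 7 mitochondrially encoded members, 10 nuclear ones had all 6 animals of prefixes 119 and 141 above all others, against 5.96% of all genes, and 4 nuclear members, Atp5a1, Atp5d, Ndufs7 and Ndufv1, had them below, against 6.16%. Atp5k had 8.70 to 13.97 CPM in prefixes 119 and 141, against 4.78 to 8.40 CPM in the others, a log2 difference of 0.78 and the highest of the nuclear members. Ndufa5, an accessory subunit of complex I, had 19.7 to 27.9 CPM, against 10.0 to 18.5 CPM in the others (log2 0.73), and Atp5j2 24.8 to 40.2 CPM, against 12.6 to 26.8 CPM in the others (log2 0.61). The lowest log2 differences were -0.33 for Atp5g1, with overlap, -0.33 for Ndufs3, at 12.5 to 15.7 CPM against 15.1 to 19.3 CPM in the others, and -0.26 for Atp5d, the delta subunit of the ATP synthase head, at 96.8 to 110 CPM against 119 to 148 CPM in the others. Within the other prefixes alone, by a test with 2 degrees of freedom, 7 members passed by edgeR's test, against 33 of 13852 genes (0.238%). They were 6 mitochondrially encoded members and Cox6c, a complex IV subunit. For mt-Nd1, prefix 047 averaged 945 CPM, prefix 046 994, prefix 048 1306 and prefix 139 1323 CPM, each over 1 heterozygous and 1 wild type animal.

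**Figure D3:**
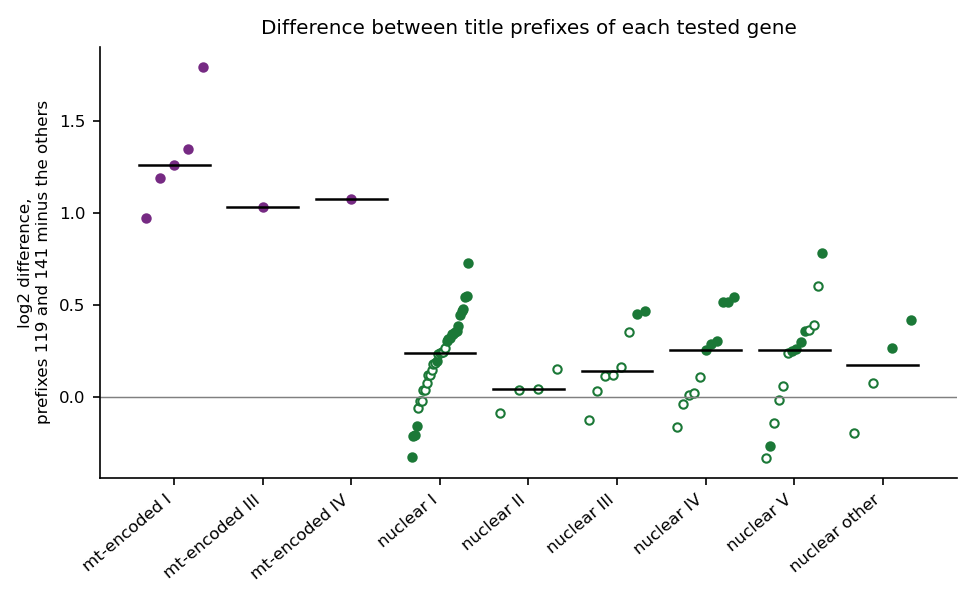
Log2 difference of prefixes 119 and 141 minus the other prefixes for each tested member, by complex and genome, with medians as bars; filled points passed an adjusted p of 0.05 in the edgeR test of title prefix within sex. All mitochondrially encoded members lie at 0.97 or higher, above the highest nuclear member at 0.78.

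The balance of the genomes in each complex was read as the ratio of summed reads of mitochondrially encoded over nuclear members in each animal. For complex I it averaged 4.41 ± 0.795 in heterozygous and 5.27 ± 0.505 in wild type animals of prefixes 119 and 141 (SD, n = 3 each), and 2.25 ± 0.243 in heterozygous and 2.26 ± 0.378 in wild type animals of the other prefixes (SD, n = 4 each). For complex III it averaged 4.32 ± 0.682 in heterozygous and 5.35 ± 0.715 in wild type animals of prefixes 119 and 141, and 2.46 ± 0.169 and 2.50 ± 0.362 in the others. For complex IV, where only mt-Co1 of the mitochondrial members had reads, it averaged 4.79 ± 0.640 in heterozygous and 4.98 ± 0.375 in wild type animals of prefixes 119 and 141, and 2.63 ± 0.183 and 2.72 ± 0.229 in the others. On the log2 scale the ratios were higher in prefixes 119 and 141 than in the others by 1.10 for complex I, 0.95 for complex III and 0.87 for complex IV, and no animal of prefixes 119 and 141 fell within the range of the others. With log2 CPM averaged over members in place of summed reads, the differences were 0.77 for complex I, 0.87 for complex III and 0.14 for complex IV, and in this average the mitochondrially encoded members at 0 reads add a constant. Heterozygous minus wild type was -0.11, -0.14 and -0.05 over all animals for complexes I, III and IV, within the spread of either genotype. In prefixes 119 and 141 it was -0.27, -0.31 and -0.06. These ratios are sums over chosen members and were given no test.

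**Figure D4:**
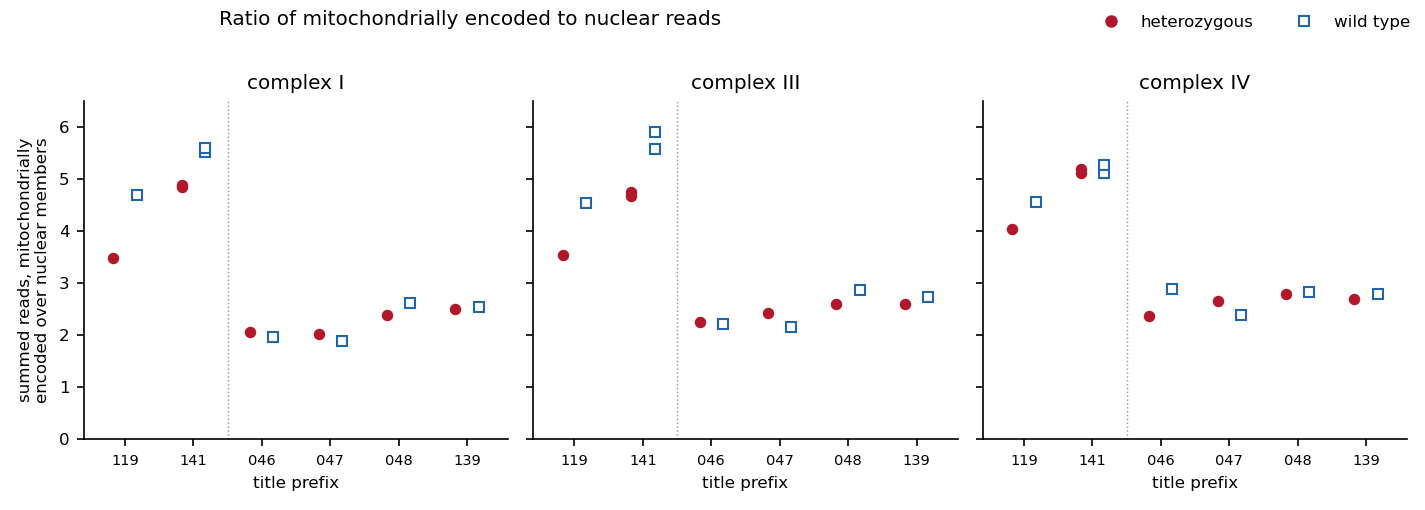
Ratio of summed reads of mitochondrially encoded over nuclear members of complexes I, III and IV in each animal, by title prefix, with heterozygous animals as filled circles and wild type animals as open squares. Ratios run from 3.49 to 5.91 in prefixes 119 and 141 and from 1.90 to 2.89 in the other prefixes.

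Exon length, the union of all annotated exons of a gene, was set beside the fold change in prefixes 119 and 141. Across the 76 tested nuclear members the log2 fold change correlated with log2 exon length (Pearson r = 0.41, Spearman rho = 0.45), and across 13517 other genes more weakly (r = 0.17, rho = 0.16). These are correlations across genes, which share the same 6 libraries. In members of up to 750 bases the median was -0.34 (10 genes), against -0.20 in 141 other genes of that length. In members over 4000 bases it was -0.18 (11 genes), against 0.02 in 7981 other genes. Core subunits of complex I had a median exon length of 2178 bases and accessory ones of 1234 bases. In complex III the medians were 2552 bases for core and Rieske subunits and 876 bases for the small ones. In complexes I and III role and length went together by these medians, but single subunits overlapped in length. Uqcrq, a small subunit called lower, had 1831 bases, against 1363 for the Rieske subunit Uqcrfs1, which was not called. Ndufb2, an accessory subunit of complex I, had 5628 bases. The parts of role and length were not tested. In complex V the small membrane subunits had a median length of 3306 bases and a median log2 fold change of -0.47, the peripheral stalk 2551 bases and -0.25, the head 1928 bases and -0.02, and the c ring 3546.5 bases and 0.01. Atp5j, of 3130 bases, and Atp5j2, of 3306 bases, were called lower. Their longest annotated coding transcripts had 809 and 955 bases. By that measure the small membrane subunits Atp5k and Atp5l had 371 and 544 bases, and the peripheral stalk ran from 682 (Atp5h) to 1604 bases (Atp5f1). The head ran from 421 (Atp5e) to 2674 bases (Atp5a1), and the c ring had 723 (Atp5g3) and 4715 bases (Atp5g1). The order of these parts by length therefore depends on the measure of length. Length of the nuclear members was less related to the difference between prefixes (r = -0.28, rho = -0.27, against -0.02 and -0.00199 in the other genes).

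**Figure D5:**
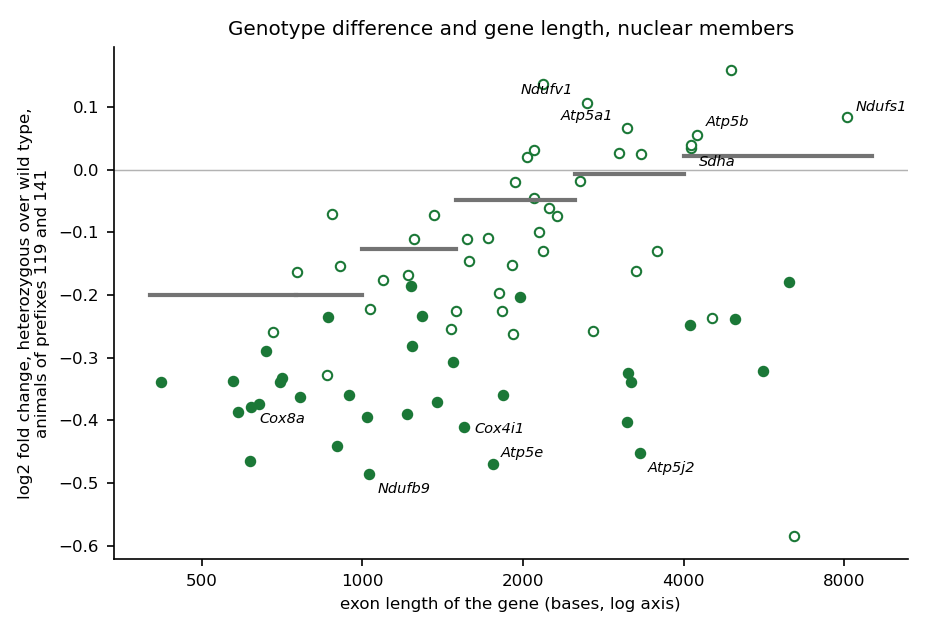
Log2 fold change of heterozygous over wild type in prefixes 119 and 141 against exon length in bases (log axis) for the 76 tested nuclear members; filled points passed an adjusted p of 0.05 in the edgeR fit of those 6 animals. Grey bars mark the median of other genes in each length class, from -0.20 at the short end to 0.02 above 4000 bases, and most members lie below them.

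Nuclear respiratory genes are known for promoters with sites of ETS-family factors such as GABP, of NRF1 and of YY1. RefSeq promoters of build GRCm38.p6, 250 bases before to 50 after the start of each gene, were found for 69 of the 87 nuclear members. The letters CCGGAAG of the ETS site stood, on either strand, in 16 of them (23.2%), against 2683 of 27025 genes with a promoter (9.93%). CGCATGCG, of the NRF1 site, stood in 9 (13.0%), against 559 (2.07%), and AAGATGGCG, of the YY1 site, in 8 (11.6%), against 443 (1.64%). The ETS letters stood in 11 of 28 nuclear members called lower in prefixes 119 and 141 and in 5 of 35 tested and not called. The NRF1 letters stood in 5 of 28 and 3 of 35, and the YY1 letters in 3 of 28 and 5 of 35. These counts are descriptions of letters. The promoters of 3 members called lower and of 1 that was not are shown, chosen after their values were seen, with matches in capitals (CTTCCGG is the ETS site read on the other strand). Cox8a lies at chr19:7217567-7217866, minus strand, Atp5e at chr2:174464052-174464351, minus strand, Atp5j, of the peripheral stalk, at chr16:84834927-84835226, minus strand, and Atp5b at chr10:128083057-128083356, plus strand.
Cox8a: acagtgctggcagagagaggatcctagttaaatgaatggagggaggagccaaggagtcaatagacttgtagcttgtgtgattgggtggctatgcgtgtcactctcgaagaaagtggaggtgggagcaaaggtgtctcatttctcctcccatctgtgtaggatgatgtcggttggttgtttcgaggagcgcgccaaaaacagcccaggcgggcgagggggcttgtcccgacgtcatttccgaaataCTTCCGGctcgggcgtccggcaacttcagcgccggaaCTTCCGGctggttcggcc
Atp5e: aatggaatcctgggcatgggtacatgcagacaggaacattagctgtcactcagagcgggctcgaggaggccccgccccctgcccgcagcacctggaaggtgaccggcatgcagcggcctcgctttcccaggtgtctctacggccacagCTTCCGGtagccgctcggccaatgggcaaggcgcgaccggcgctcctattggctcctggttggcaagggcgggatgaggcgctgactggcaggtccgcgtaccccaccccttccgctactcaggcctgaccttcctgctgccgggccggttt
Atp5j: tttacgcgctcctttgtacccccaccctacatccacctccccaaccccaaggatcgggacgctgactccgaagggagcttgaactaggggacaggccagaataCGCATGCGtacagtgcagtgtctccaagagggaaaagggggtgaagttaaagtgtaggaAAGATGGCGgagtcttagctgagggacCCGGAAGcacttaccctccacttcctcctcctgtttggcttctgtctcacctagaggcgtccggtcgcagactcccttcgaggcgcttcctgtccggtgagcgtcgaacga
Atp5b: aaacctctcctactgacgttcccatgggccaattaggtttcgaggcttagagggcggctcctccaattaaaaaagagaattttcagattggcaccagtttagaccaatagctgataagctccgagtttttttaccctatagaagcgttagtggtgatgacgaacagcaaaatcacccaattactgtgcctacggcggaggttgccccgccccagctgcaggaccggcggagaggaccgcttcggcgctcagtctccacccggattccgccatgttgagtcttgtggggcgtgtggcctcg
Cox8a holds the ETS letters at 2 places, across the start and past it, and Atp5e at 1 place. Atp5j holds all 3 kinds of letters, with CGCATGCG farthest from the start. It has 2 listed promoters, and the one shown was chosen by its number of matches. All 3 members shown that were called lower hold the ETS letters, which stood in only 11 of the 28 called lower. Atp5b, which was not lower, holds none of the letters in this window. The level of Atp5j was 37.0, 37.3 and 37.5 CPM in heterozygous animals, against 45.1, 50.7 and 52.3 CPM in wild type animals of prefixes 119 and 141, with no overlap (log2 fold change -0.40, SE 0.0721, adjusted p = 0.000276 in edgeR's quasi-likelihood fit).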

How the data were processed

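RNA-seq of cortex from 14 mice was used, single-end reads of 50 bases from a directional library kit, per the labels' protocols. The submitters' processing notes name Trim Galore, Bowtie, STAR, bedtools and the build mm9, without roles. The deposited table holds the authors' read counts per gene, 1 column per animal. Its further columns hold the authors' own comparison by DESeq of exon reads, per the file headers, as log2 fold changes, a test statistic (score) and p-values, of which only adjusted p-values are quoted. Strand use and the handling of reads with several matches are not given in the sources used here.

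Counts were tested with edgeR 4.0.16 in R 4.3.3 (TMM scaling, filterByExpr by genotype, robust quasi-likelihood F test, Benjamini-Hochberg adjustment over all genes tested, threshold 0.05). The main fit used sex and genotype; further fits used the interaction of genotype with prefix set, the title prefix within sex, and each prefix set alone. DESeq2 1.42.0 was an alternative. Of 34193 genes 14540 had no read and 13815 were tested, with 99.9% of the reads; no column belonged to a sample outside the series. The scripts were tested on simulated data. P-values measure the spread between these animals.

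Genotypes share title prefixes. Deviations from the genotype means of animals of a prefix correlated in all 9 pairs (r 0.22 to 0.56, above 0.1), so the prefix was used as a replicate block beside the main fit; animals of a prefix also share sex and prefix set. Exon lengths and 50-base windows came from GENCODE M21 and promoters from RefSeq, both GRCm38, matched by symbol. Exon length was the union of all annotated exons of a gene, and 98.4% of tested genes had a length.

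The members, lists, prefix sets and tests were chosen with earlier results of these data known. Named were all mitochondrially encoded members, the 2 most abundant nuclear members of each complex, the 3 with the smallest p in each direction for genotype and interaction, the 3 highest and 3 lowest differences between prefixes, tissue isoforms, and Dnmt3a; other genes were picked after their values were seen. A result for 1 gene named by this rule is not reported here.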

Additional observations from a re-analysis of the deposited data

Results flagged for a closer look

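Of 82 sets of 7 animals of a genotype examined for named members, 3 held an animal apart from the others by Dixon's criterion for the gap to the nearest animal over the whole range, and chance flags about 1 in 20 such sets. Ndufs1 had its lowest heterozygous value, 106.3 CPM, in replicate 2, with the nearest at 118.4 CPM. Sdhd had its lowest heterozygous value, 57.22 CPM, in replicate 1, with the nearest at 60.46 CPM. Cox7a2 had its highest heterozygous value, 85.73 CPM, in replicate 6 of prefix 141, with the nearest at 75.67 CPM.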

How the results depend on the processing

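For genotype over all animals, the count of members called was 0 under DESeq2, other size factors, no filter, a library size without mitochondrial genes, a term for prefix set, the replicate block and each animal left out, and 40 only in the animals of prefixes 119 and 141 alone. In the other prefixes alone the fold change turned to 0.0197 for mt-Cytb, 0.0666 for mt-Nd4, 0.0161 for mt-Nd5 and 0.0054 for Cox4i1 (log2). For the interaction, 0 members became 8 with DESeq2, 21 with no filter, 3 with a library size without mitochondrial genes, 26 with the replicate block (against 767 genes, 5.55%), and 0 to 23 as each animal was left out. For title prefixes, 43 members (against 4448 genes, 32.2%) became 7 in the other prefixes alone (against 33 genes, 0.238%) and 36 to 47 as each animal was left out. For prefixes 119 and 141 alone, 40 (against 2304 genes, 16.6%) became 0 without the sex term (against 0 genes) and 28 to 41 as each animal was left out. Counts over all genes are not given here for the other settings, so member counts there are not read as a result about the members. The log2 ratio of prefixes 119 and 141 minus the others moved to 0.7694 for complex I and 0.1357 for complex IV when log2 CPM was averaged over members, where members at 0 reads add a constant by construction. Leaving out animals moved heterozygous minus wild type between -0.2418 and 0.0185 for complex I, -0.2496 and -0.0082 for complex III, and -0.1579 and 0.0422 for complex IV. The cause of the other changes was not tested. Members at 0 reads limit what can be said of complex V and of mt-Co2 and mt-Co3.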
